A study of Homo sapiens with 6 samples.

Results

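Tissue factor and the genes that restrain or relay its activity were examined as 7 genes of 31368 in the expression table: F3, TFPI, TFPI2, THBD, PROCR, F2R and F2RL1. The genes were selected on their symbol and place in the pathway, and they were chosen with earlier results of these data known, the rise of F3 among them. The lactate contrast in these 7 genes is therefore given as a description, without p-values. The RNA came from CAL27, an established human line of squamous cell carcinoma of the tongue. The 3 control libraries came from cells left untreated, and the other 3 from cells that had spent 24 h with lactate at 10 mM; all were poly-A RNA-seq. The chromatin profiling that goes with this project was not analysed here, and neither the form of lactate nor the pH of the medium is stated in the labels.

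Tissue factor, the product of F3, is the transmembrane receptor of factor VIIa and the physiological starter of blood clotting. The complex activates factors IX and X, and the resulting thrombin cuts fibrinogen and the protease-activated receptors (PARs) on cells. TFPI, a Kunitz-type inhibitor, shuts the tissue factor complex down, and thrombomodulin (THBD) with the endothelial protein C receptor (PROCR) turns thrombin towards activating the anticoagulant protein C. Squamous carcinomas often carry tissue factor and PAR1 (F2R) and PAR2 (F2RL1), through which clotting proteases signal to the tumour cell.

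In these cells F3 mRNA was abundant and rose by 46.2% in lactate, and PAR1 mRNA rose by 22.0%. Thrombomodulin mRNA fell by 21.4%. PAR2 mRNA fell by 9.39%, a call that was lost under 2 other scalings of the libraries. TFPI mRNA was scarce and stood 44.0% higher in lactate, close to the proportion seen for F3. PROCR stood 2.98% higher and was not called, and TFPI2 was at the limit of counting. Of the 7 genes, 5 passed the filter on low values (3 or more libraries with 1 FPKM or more; FPKM is fragments scaled to gene length and library size). Of these 5, limma on log2(FPKM + 1) at a Benjamini-Hochberg adjusted p under 0.05 called 2 higher and 2 lower. Across all 11792 genes tested, 27.7% were called higher and 30.9% lower, 58.6% in all. Since the choice of genes used this contrast, nothing is read from their count.

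Among the 5 genes with an entry in the RefSeq promoter table (GRCh38.p14), the F3 promoter is shown because F3 moved most. That of TFPI is shown because TFPI differed by a like proportion, and that of F2RL1 because it went the other way. The windows analysed are the 250 bases before RefSeq's start on each gene's strand. The lines show, 5′ to 3′, the part of each window farther from the start, at chr1:94541801-94542009 (minus strand), chr2:187554493-187554685 (minus strand) and chr5:76818780-76818932 (plus strand). For F3 and F2RL1 that part lies before the gene's GENCODE 29 exons. The 41, 57 and 97 bases nearest the start are left out for F3, TFPI and F2RL1. RefSeq's start for TFPI and the TFPI stretch shown lie within the gene as GENCODE draws it. Capitals mark matches, on either strand, to GGGCGG (GC box, bound by Sp1), TGANTCA (AP-1), GGNNTTTCC (a kB-like element), CACGTG (E-box) or TATAA, and no match overlaps another in these 3 windows.
F3: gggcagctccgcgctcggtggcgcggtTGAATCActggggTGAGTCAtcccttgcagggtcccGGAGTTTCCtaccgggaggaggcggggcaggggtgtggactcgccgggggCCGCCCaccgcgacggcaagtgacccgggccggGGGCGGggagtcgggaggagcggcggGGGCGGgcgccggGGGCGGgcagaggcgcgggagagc
TFPI: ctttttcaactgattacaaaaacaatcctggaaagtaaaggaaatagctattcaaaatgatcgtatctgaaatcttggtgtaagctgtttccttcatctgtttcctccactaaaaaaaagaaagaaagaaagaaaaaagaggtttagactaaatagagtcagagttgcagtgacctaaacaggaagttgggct
F2RL1: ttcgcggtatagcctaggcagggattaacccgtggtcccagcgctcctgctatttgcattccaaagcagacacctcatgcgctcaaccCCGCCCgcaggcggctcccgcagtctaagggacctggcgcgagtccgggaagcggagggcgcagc

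The F3 window held 4 GC boxes, starting 137, 104, 78 and 65 bases before the start, and 7.63% of 35116 promoters in that table held at least 4. It held 2 AP-1 matches, at 223 and 210 bases, against 6.57% of promoters with any and 0.401% with at least 2. A kB-like match lay at 187 bases (5.49% of promoters) and a TATAA match at 27 bases (18.9%), the latter in the stretch not printed. The TFPI window matched none of the 5 motifs. That of F2RL1 matched only the GC box, at 162 and 77 bases (42.6% of promoters held at least 1 and 24.3% at least 2). The match at 77 bases lies in the stretch not printed. The windows of TFPI2 and PROCR, not shown, held matches too. That of TFPI2 had 1 AP-1 match, at 87 bases, and 2 GC boxes. That of PROCR had 2 GC boxes and 2 TATAA matches, at 81 and 80 bases. GC content was 78.0% in the F3 window with 34 CpG, 38.4% with 2 CpG in that of TFPI, and 68.8% with 26 CpG in that of F2RL1, where the median over all promoters was 58.0% and 11 CpG. F3 and TFPI, whose mRNAs differed by a like proportion in lactate, shared none of these matches. The TFPI window lies inside the gene as GENCODE draws it, so the 2 windows are not alike in place. A match is a string of letters and not a measured binding site.

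F3 (ENSG00000117525) lies on chromosome 1 at 94529225 to 94541800 of GRCh38, on the minus strand, with 7 merged exons. Its level was 208, 206 and 207 FPKM in untreated replicates 1 to 3 and 306, 300 and 302 FPKM in lactate replicates 1 to 3. The groups lie far apart for their spread: the lowest lactate library stood 92.1 FPKM above the highest untreated one. The means were 207 ± 0.945 and 303 ± 2.79 FPKM (SD, n = 3 each), a ratio of 1.46 and a log2 fold change of 0.55 (SE 0.015). The values rested on 14979 to 35072 reads, so that counting alone gives a coefficient of variation of up to 0.817%. The measured one was 0.456% in untreated and 0.922% in lactate libraries. By level F3 ranked 250 of 11792 tested genes in untreated cells, and by size of rise 59.

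The 5 genes whose profile over the 6 libraries came nearest to that of F3 were sought among 4010 genes with an untreated mean of at least 10 FPKM. Likeness was the root mean square distance of log2(FPKM + 1) after subtraction of each gene's untreated mean. UGCG, which encodes glucosylceramide synthase, was nearest, at 0.013, followed by ASPH (0.018), an aspartyl hydroxylase of the endoplasmic reticulum. CLTC, the clathrin heavy chain gene, lay at 0.019, the integrin subunit gene ITGB1 at 0.027 and CAB39 at 0.030. CLTC went from 21.4 ± 0.178 to 32.0 ± 0.729 FPKM and ITGB1 from 13.1 ± 0.158 to 19.2 ± 0.516 FPKM. These 5 genes were selected for this likeness, so their changes are a description only.

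**Figure D1:**
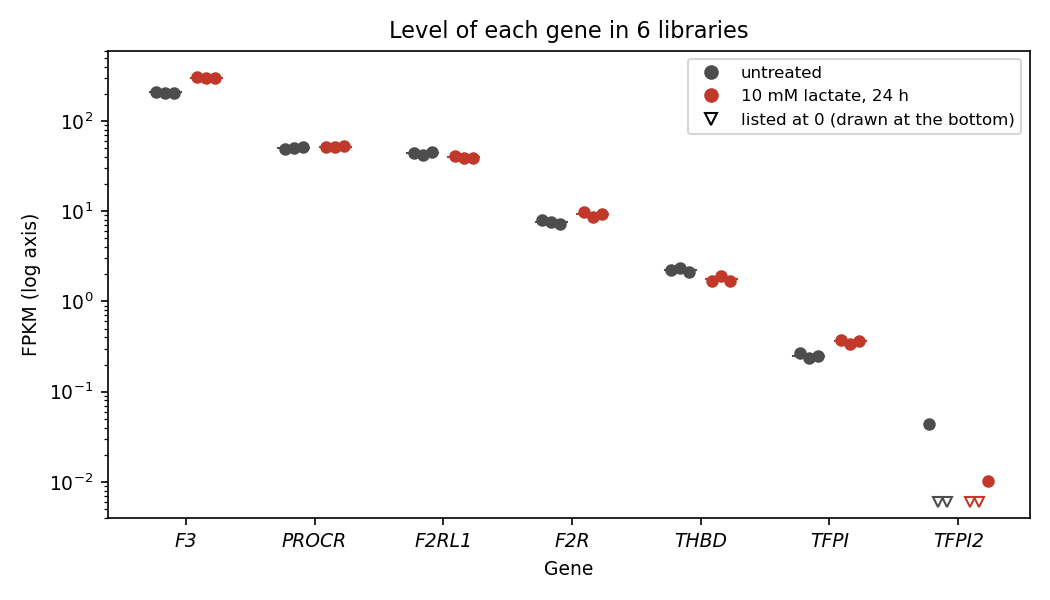
Level of the 7 genes in each library as FPKM on a log axis, with untreated libraries in grey, lactate libraries in red, group means as dashes (none for TFPI2) and open triangles at the bottom for values listed at 0. F3 lies above the other 6 genes in every library, and TFPI2 is listed at 0 in 4 of them.

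The 7 genes differed widely in level per length. In untreated cells the means ran 207 FPKM for F3, 50.4 for PROCR, 43.8 for F2RL1, 7.57 for F2R, 2.24 for THBD and 0.251 for TFPI. No pair of neighbours in that order overlapped within the untreated or within the lactate libraries, and the order was the same in both groups, as the plot of levels shows. F3 stood above 97.9% of tested genes, PROCR above 91.3%, F2RL1 above 90.1%, F2R above 58.2% and THBD above 23.7%.

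TFPI (ENSG00000003436, chromosome 2, 187464230 to 187565760, minus strand) encodes the main physiological inhibitor of the tissue factor complex. It stood at 0.266, 0.237 and 0.249 FPKM in untreated and 0.375, 0.340 and 0.367 FPKM in lactate libraries, which do not overlap. Behind these values were 88, 70 and 97 reads, and 136, 131 and 173 reads. The ratio of means was 1.44 (0.251 ± 0.014 to 0.361 ± 0.018 FPKM). The gene did not reach the filter at 1 FPKM. With no filter, limma's log2 fold change was 0.12 (SE 0.045) on the log2(FPKM + 1) scale, where adding 1 dwarfs so low a value. On reads recovered from the FPKM values, voom, added after seeing the data, put it at 0.52 (SE 0.16). F3 exceeded TFPI 827-fold per length in untreated and 840-fold in lactate libraries. On the log2 scale the ratio of TFPI to F3 was -9.69 ± 0.075 and -9.71 ± 0.063, with overlapping groups. The level per length of TFPI is lowered by the 11714 nt of exon sequence that the authors' values imply for it.

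TFPI2, a paralog that inhibits plasmin and other proteases and is often silenced in tumours, was barely counted. It had 3 reads in untreated replicate 1, 1 read in lactate replicate 3 and 0 in the other 4 libraries. The limit that a count of 0 allows (3 reads) corresponds to 0.0305 to 0.0488 FPKM per library, so no difference was detectable at this depth and no fold is given. This limit covers counting error only.

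THBD (ENSG00000178726, chromosome 20, 23045633 to 23049741, minus strand) is a gene of 1 exon for thrombomodulin, the thrombin-binding cofactor of protein C activation. It read 2.24, 2.33 and 2.14 FPKM in untreated and 1.70, 1.90 and 1.67 FPKM in lactate libraries. All 3 lactate values lay under all 3 untreated ones. The means were 2.24 ± 0.095 and 1.76 ± 0.127 FPKM, a ratio of 0.786, from 212 to 288 reads per library. The log2 fold change of FPKM + 1 was -0.23 (SE 0.049), which adding 1 makes smaller than the ratio implies. With 0.1 added it was -0.33 (SE 0.070), and by voom on recovered reads -0.35 (SE 0.093). After correction of every library for GC content and exon length by splines, the value of -0.23 became smaller in size, at -0.11 (SE 0.044). The THBD transcript has 54.8% GC, the highest of the 7.

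PROCR (ENSG00000101000, chromosome 20, 35172073 to 35216240, plus strand) encodes the receptor that presents protein C to the thrombin-thrombomodulin complex. Its values were 49.5, 49.7 and 51.9 FPKM in untreated and 51.6, 51.8 and 52.2 FPKM in lactate libraries. Untreated replicate 3 lay within the range of the lactate group. The means were 50.4 ± 1.33 and 51.9 ± 0.310 FPKM, with a log2 fold change of 0.042 (SE 0.024) that was not called. Under other scalings it was called higher, with 0.17 (SE 0.026) after quantile normalization, 0.11 (SE 0.025) with read totals and 0.21 (SE 0.022) after the GC and length correction. The exon length behind its FPKM is the shortest of the 7 (1697 nt). 218 nt of its annotated exons overlap an antisense transcript, and whether counting used strand is not stated. Within libraries, PROCR exceeded THBD 22.5-fold in untreated and 29.6-fold in lactate cells. The log2 ratio of THBD to PROCR was -4.49 ± 0.096 and -4.89 ± 0.106, without overlap.

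**Figure D2:**
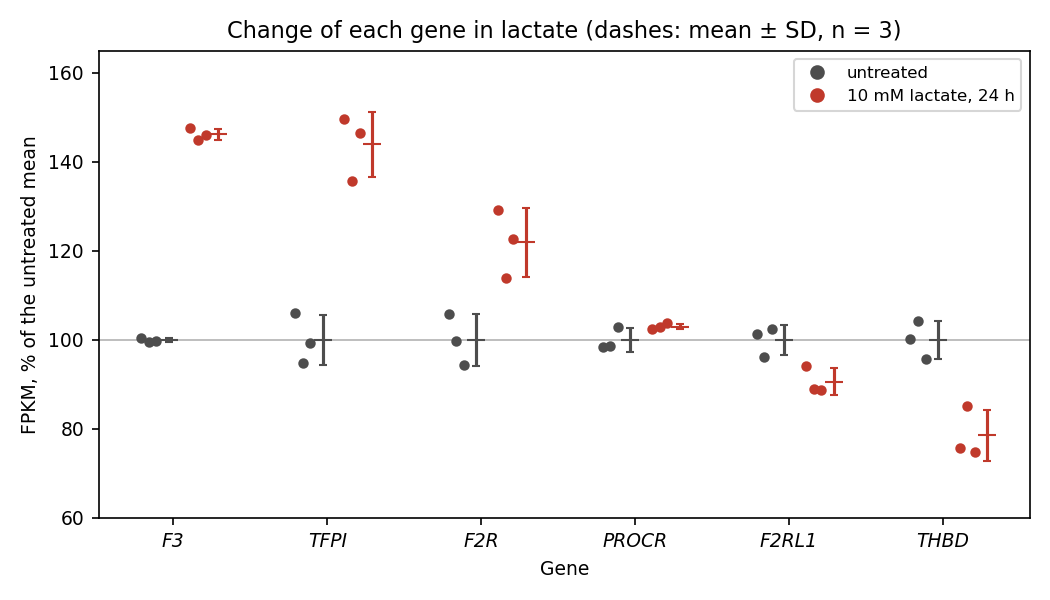
FPKM of each library as a percentage of the gene's untreated mean (6 genes, TFPI2 left out), with untreated libraries in grey, lactate libraries in red, and mean ± SD beside them. F3 and TFPI lie near 146% and 144% in lactate, PROCR near 103% and THBD near 78.6%.

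F2R encodes PAR1, the main thrombin receptor (ENSG00000181104, chromosome 5, 76716043 to 76735781). It read 8.02, 7.54 and 7.15 FPKM in untreated and 9.78, 8.62 and 9.29 FPKM in lactate libraries. The groups did not overlap, and their nearest libraries lay 0.601 FPKM apart. The means were 7.57 ± 0.438 and 9.23 ± 0.584 FPKM, a ratio of 1.22 and a log2 fold change of 0.26 (SE 0.053), from 754 to 1484 reads.

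F2RL1 encodes PAR2, which trypsin-like proteases and the tissue factor-VIIa complex cleave and thrombin does not (ENSG00000164251, chromosome 5, 76818933 to 76835315). Its values were 44.4, 42.1 and 44.8 FPKM in untreated and 41.2, 38.9 and 38.9 FPKM in lactate libraries. Untreated replicate 2 and lactate replicate 1 lay 0.931 FPKM apart, less than the SD of either group. The means were 43.8 ± 1.44 and 39.7 ± 1.34 FPKM, with a log2 fold change of -0.14 (SE 0.033). After quantile normalization it was -0.044 (SE 0.034) and with read totals -0.070 (SE 0.031), neither of which was called. The estimate was below 0 in each of the 7 settings drawn in the plot of settings.

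F2R and F2RL1 lie on the same strand 83151 bases apart, and F2RL2, which encodes PAR3, lies 92608 bases on the other side of F2R. The ratio of F2R to F2RL1 within a library needs no scaling between libraries. F2RL1 exceeded F2R 5.79-fold in untreated and 4.30-fold in lactate cells. The log2 ratio went from -2.53 ± 0.101 to -2.11 ± 0.060, and every lactate library (-2.17 to -2.07) lay above every untreated one (-2.65 to -2.47). F2RL2 was at 0.129 ± 0.034 and 0.104 ± 0.031 FPKM, from 8 to 19 reads. F2RL3, the PAR4 gene, had at most 2 reads in any library. Of the 4 receptors of this family, PAR2 was thus the most abundant as mRNA, and PAR1 came next.

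Over the 7 genes, the groups did not overlap in 5, and in 4 of the 5 that were tested. Of all tested genes, 65.5% had groups that did not overlap.

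**Figure D3:**
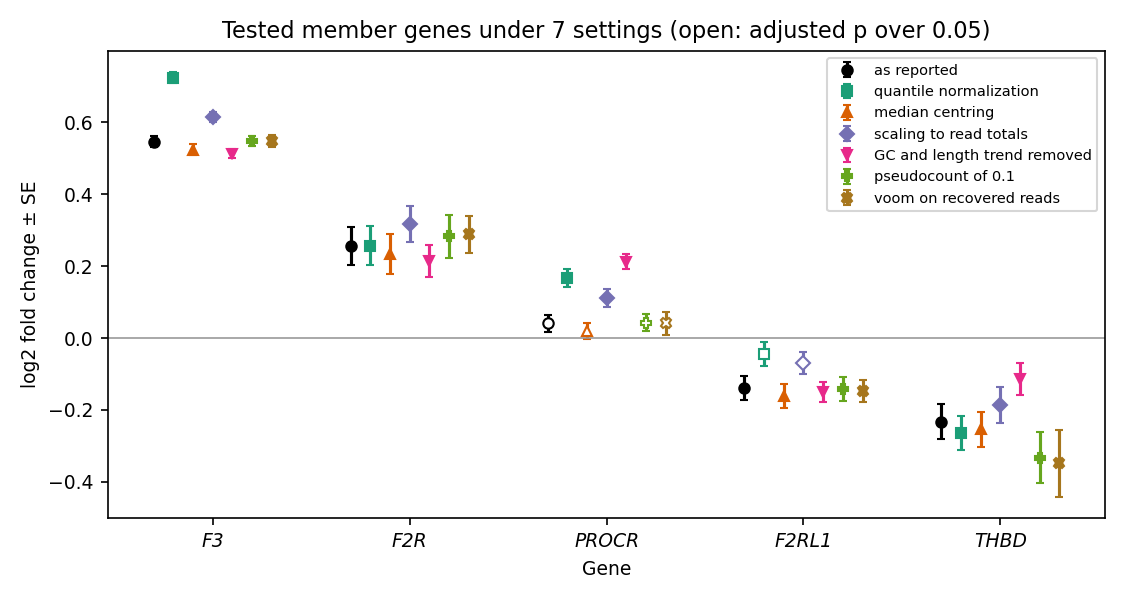
log2 fold change ± SE of the 5 tested genes as reported and under 6 other settings, with open symbols where the adjusted p was over 0.05. F3 stays between 0.51 and 0.72, PROCR is filled under 3 settings, and F2RL1 is open under 2.

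The wider pathway was followed in 7 lists of 115 genes written from general knowledge of coagulation. Of these, 104 were found in the expression table and analysed, and 72 were tested. By limma, 23 were called higher and 19 lower, together 58.3% of those tested beside 58.6% of all genes, with a median log2 fold change of -0.015 against -0.016. When libraries were scaled to read totals, 12 were called lower and 30 higher.

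Genes for plasma factors on which the tissue factor pathway acts had few reads. F10 had 4 to 17 reads per library, F5 5 to 19, and F2, the prothrombin gene, at most 3. Of 6 tested clotting factor and cofactor genes, 2 rose and 4 did not pass (median 0.030). The risen pair, LMAN1 (22.1 ± 0.593 to 28.9 ± 0.777 FPKM, log2 fold change 0.37, SE 0.030, limma adjusted p = 6.15e-05) and MCFD2 (0.16), encodes the receptor that ferries factors V and VIII out of the endoplasmic reticulum. After the GC and length correction they stood at 0.21 and 0.076, still called. F7, the gene of tissue factor's own ligand, was not found in the expression table, so it was not analysed.

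Among 9 tested anticoagulant genes, 2 rose and 3 fell (median -0.0041). PROS1, which encodes protein S, the cofactor of activated protein C and of TFPI, had the largest change of the list. It read 4.02, 4.23 and 3.99 FPKM in untreated and 6.07, 6.28 and 6.58 FPKM in lactate libraries (log2 fold change 0.52, SE 0.039, adjusted p = 4.60e-05 by limma). NDST1, a heparan sulfate sulfotransferase gene, fell by 0.29 on the log2 scale (adjusted p = 1.16e-04, limma), and ANXA5, which encodes a phosphatidylserine-binding anticoagulant, fell by 0.20. After quantile normalization ANXA5 stood at -0.037 and was not called (limma adjusted p = 0.252). EXT1, a heparan sulfate polymerase gene, was called higher at 0.091 and stood at -0.045 after the GC and length correction. Its call was lost on leaving out any 1 library other than lactate replicate 1 (limma adjusted p = 0.0777 to 0.143). PROC, the protein C gene itself, had 5 to 20 reads per library.

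Downstream of the PARs, 11 genes for transducers and regulators were tested, of which 3 rose and 3 fell (median -0.047). GNAQ and GNA13, which encode G protein alpha subunits that couple to PAR1, rose (log2 fold change 0.33 and 0.32, limma adjusted p = 1.64e-04 and 2.48e-04). After the GC and length correction both stood at 0.16 and were still called. GNA11, the close relative of GNAQ, fell from 11.8 ± 0.358 to 9.91 ± 0.399 FPKM (-0.23, limma adjusted p = 0.00146). GNAI2, another such subunit gene, fell by 0.083, and it was not called after quantile normalization (-0.017), with read totals (-0.015), after the GC and length correction (-0.014) or without lactate replicate 3 (-0.075). GNA12 was not called at -0.047. GRK6, a receptor kinase gene, fell by 0.11, and was not called after quantile normalization (adjusted p = 0.205, limma), with read totals (0.321) or after the GC and length correction (0.411). It was lost too without untreated replicate 2 or 3 (0.0656 and 0.0765) and without lactate replicate 1 or 3 (0.0572 and 0.0669). Its exons overlap those of F12 on the opposite strand by 399 nt.

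Of 5 tested genes for proteases that can cleave PAR2 and for their inhibitors, SPINT1 rose and the other 4 did not pass (median -0.016). SPINT1 encodes a Kunitz inhibitor of matriptase and went from 30.8 ± 0.073 to 34.3 ± 0.440 FPKM (log2 fold change 0.15, limma adjusted p = 6.12e-04), and stood at 0.24 after quantile normalization and 0.26 after the GC and length correction. Matriptase itself (ST14) read 32.3 ± 0.556 and 32.0 ± 1.16 FPKM. The kallikrein gene KLK5 stood at 28.6 ± 1.90 and 26.9 ± 1.04 FPKM. In the plasminogen list 3 of 9 tested genes rose and 2 fell (median -0.060). SERPINB2, which encodes an inhibitor of urokinase, is counted among the 3 that rose. It read 0.787, 0.464 and 0.723 FPKM in untreated and 1.41, 1.35 and 1.59 FPKM in lactate libraries, on 32 to 175 reads. It passed the filter at 1 FPKM through the lactate libraries alone, so its call is no independent sign of a difference. PLAU, the urokinase gene, stood at 205 ± 2.38 and 208 ± 1.25 FPKM and was not called. It was called higher after quantile normalization (0.19), with read totals (0.091) and after the GC and length correction (0.17), and 916 nt of its exons overlap C10orf55 on the opposite strand. ANXA2, a plasminogen receptor gene, fell by 0.14 and stood at 0.040 after quantile normalization, not called, at -0.075 with read totals and at -0.27 after the GC and length correction. PLAUR, the urokinase receptor gene, fell by 0.094 and stood at 0.015 after the GC and length correction. Its call was lost without untreated replicate 2 or 3 or lactate replicate 2 or 3 (limma adjusted p = 0.0969 to 0.114).

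**Figure D4:**
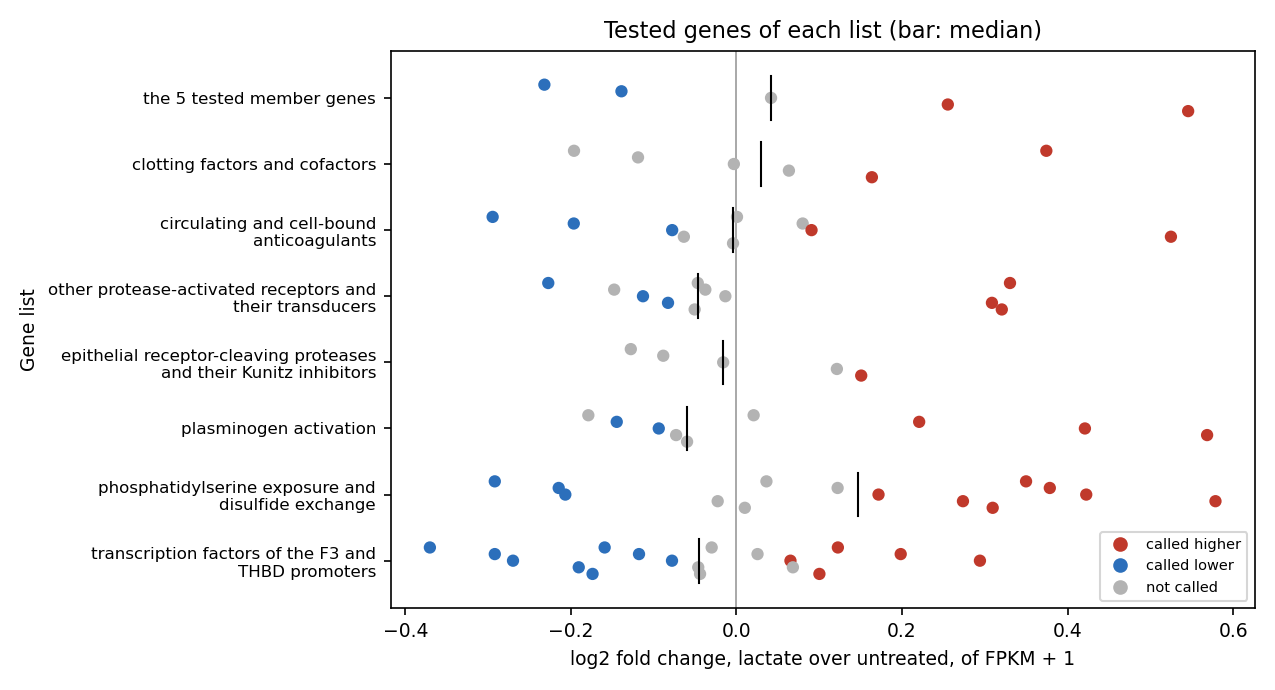
log2 fold change of every tested gene of the 7 pathway lists and of the 5 tested genes of the tissue factor group, coloured red where called higher, blue where called lower and grey otherwise, with list medians as bars. The list of phosphatidylserine exposure and disulfide exchange has the highest median, 0.15.

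Tissue factor becomes active when phosphatidylserine reaches the outer membrane leaflet, and protein disulfide isomerases are thought to alter its disulfide bonds. Of 14 tested genes of these processes, 7 rose and 3 fell (median 0.15). Among the isomerase genes P4HB, PDIA4 and PDIA6 fell, and PDIA3 was not called at 0.036 but was called higher at 0.18 after quantile normalization. Among the scramblase genes ANO6 and PLSCR4 rose, and PLSCR1 (-0.023) and XKR8 (0.010) were not called. ANO6 encodes the scramblase TMEM16F, which exposes phosphatidylserine, and went from 7.55 ± 0.022 to 11.8 ± 0.165 FPKM (log2 fold change 0.58, SE 0.026, limma adjusted p = 1.20e-05). PLSCR4 rose by 0.42. Flippase genes, whose products pull phosphatidylserine back inside, rose too: ATP11B by 0.38 and ATP11A by 0.17, with their partner TMEM30A by 0.31. After the GC and length correction ATP11B and TMEM30A stood at 0.19 and 0.15. PDIA4 changed by -0.29 (219 ± 3.03 to 179 ± 1.31 FPKM), P4HB by -0.21 and PDIA6 by -0.21. After quantile normalization these stood at -0.12, -0.065 and -0.070, still called, and PDIA4 at -0.16 after the GC and length correction.

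Of 18 tested genes for transcription factors known at the F3 and THBD promoters, 5 rose and 8 fell (median -0.045). HIF1A rose by 0.29 (50.6 ± 1.98 to 62.2 ± 1.65 FPKM, limma adjusted p = 2.70e-04) and SP3 by 0.20, while after the GC and length correction HIF1A stood at 0.15, still called, and SP3 at -0.014. The AP-1 genes JUND (47.1 ± 0.734 to 36.2 ± 1.16 FPKM, -0.37, limma adjusted p = 4.92e-05) and FOSB (-0.29) fell, as did JUN (-0.17) and FOS (-0.16). JUN stood at 0.033 after quantile normalization and FOS at -0.025 after the GC and length correction, neither called. FOSL1, at 152 ± 1.42 FPKM in untreated cells the most abundant AP-1 gene of the list, was called higher at 0.065, and was not called after median centring (0.044) or without a variance trend. JUNB (0.068) and FOSL2 (-0.044) were not called. Among the NF-kB genes, NFKB1 (-0.12), RELA (-0.078) and RELB (-0.19) were called lower, NFKB2 (-0.030) was not called and REL was not tested. EGR1 (0.10) and KLF6 (0.12) were called higher, and SP1 (-0.046) was not called. How the calls of these genes move under other settings was not examined gene by gene. KLF4, a factor known to induce THBD, went from 18.4 ± 0.704 to 15.1 ± 0.775 FPKM (-0.27, and -0.14 after the GC and length correction), and KLF2 was not called, on 82 to 143 reads per library. These are mRNA levels and not activities of the factors.

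THBD, PROCR and TFPI are best known from endothelium, so markers of other cells were read beside them. All 10 squamous markers were tested and summed to 1096 to 1113 FPKM in untreated and 1105 to 1127 FPKM in lactate libraries. SFN alone gave 602 and 598 FPKM of that, and within the list 6 markers were called higher and 2 lower. The basal keratin gene KRT5 fell from 155 ± 1.68 to 118 ± 2.22 FPKM (-0.39, and -0.20 after quantile normalization), KRT6A fell by 0.25, and KRT17 rose from 108 ± 1.76 to 136 ± 3.52 FPKM. KRT14, CDH1, TP63, DSG3 and EPCAM were the others called higher. Of 10 endothelial markers 9 were found in the expression table and analysed, and they summed to 1.55 to 1.69 and 1.47 to 1.56 FPKM. Most of that was CDH5 (1.22 ± 0.145 and 0.992 ± 0.041 FPKM), whose groups did not overlap and which was not called. PECAM1 stood at 0.025 and 0.035 FPKM, and TIE1 and EMCN had no more than 3 reads in any library. The groups of the other endothelial markers analysed overlapped. Platelet and leukocyte markers (7 of 10 analysed) summed to 1.73 to 2.02 and 1.40 to 1.77 FPKM, and fibroblast markers (9 of 10 analysed) to 1.08 to 1.21 and 1.62 to 1.80 FPKM. CD14, a leukocyte marker, stood at 0.780 ± 0.086 and 0.439 ± 0.116 FPKM without overlap, on 16 to 47 reads. The groups of the other platelet and leukocyte markers analysed overlapped. Of the fibroblast markers, LUM stood at 0.372 ± 0.050 and 0.753 ± 0.102 FPKM, PDGFRB at 0.224 ± 0.035 and 0.343 ± 0.0093 FPKM and COL1A2 at 0.108 ± 0.022 and 0.154 ± 0.015 FPKM, each without overlap between groups. COL1A1 stood at 0.399 ± 0.017 and 0.431 ± 0.026 FPKM with overlap, THY1 was lower in lactate (0.030 and 0.014 FPKM, 2 to 7 reads), and FAP and COL6A3 were at 0 in all 3 untreated libraries and had at most 2 reads in lactate. None of these passed the filter. The part of these markers in the THBD and TFPI values was not tested. Fewer cells carrying a transcript and less of it per cell cannot be told apart in such bulk libraries. No label states that the replicates are independent cultures. The p-values therefore refer to the variation among these 6 libraries, and that variation could be technical. Library denominators ran from 25163374 to 40220226 reads. Of all calls, 47.2% were higher as reported and 61.9% with libraries scaled to read totals.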

How the data were processed

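Per the file headers the deposited table holds FPKM, made by the authors, in 1 column per library. The submitters' processing notes list featureCounts 1.5.0-p3, StringTie 1.3.3b, HISAT2 2.0.5 and fastp, and build hg38. Annotation release and strand setting: not given in the sources used here. A gene was tested if 3 or more libraries had 1 FPKM or more (11792 genes). log2(FPKM + 1) was fitted by limma 3.58.1 in R 4.3.3 (robust, trended variance) with treatment as the sole term, and p-values were Benjamini-Hochberg adjusted over every tested gene (threshold 0.05). Differences are given as lactate minus untreated on that scale, so those of low genes are understated. Whole reads were recovered as multiples of 1 read's worth, to within 0.0002 reads in all 31368 genes, with 1 length per gene; in genes of few reads that length is not unique. Denominators were 25163374 to 40220226 reads, and recovered reads were 103% to 104% of them in untreated and 98.0% to 99.1% in lactate libraries, so the deposited values appear already scaled between libraries. Coordinates, exon overlaps and GC content come from GENCODE 29 (GRCh38), and promoters from RefSeq (GRCh38.p14; 5 of the 7 genes matched).

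The 7 genes, the lists and the tests were chosen with earlier results of these data known. Named beside the 7 were up to 2 genes with the largest called change per direction and list, 11 fixed genes (among them F2, F5, F10, PROC, PROS1, F2RL2, F2RL3, PLAU and PLAUR), and the 5 genes most like F3. Some genes that the rule or the lists hold are not reported here. Other genes named were picked after their values were seen. The test was tested on simulated data. Alternatives were another pseudocount, other filters, 3 scalings, no variance trend, stricter thresholds, the replicate block, each library left out, removal of GC and length trends (splines with 4 degrees of freedom), and voom on recovered reads. Scaling to read totals and voom with no filter were added after seeing the data. Python 3.11.15 with numpy 2.4.6, pandas 2.3.3 and matplotlib 3.10.9 did the rest.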

Additional observations from a re-analysis of the deposited data

How the results depend on the processing

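A limma test for a change larger than 1.2-fold on the log2(FPKM + 1) scale left 429 called genes in all. It called 3 pathway genes higher and 0 lower, and of the 7 genes 1 higher (F3) and 0 lower. This is stricter than a cut on the ratio of means: F2R (ratio 1.22) and THBD (ratio 0.786) were not called by it. Of the 7 genes, 1 was called lower (F2RL1) with a filter at 5 FPKM, which removes THBD, and 1 (THBD) after quantile normalization or scaling to read totals. Scaling to read totals also took pathway genes called lower from 19 to 12. Signs turned for ANXA2 (0.040) and JUN (0.033) after quantile normalization, and for EXT1 (-0.045), PLAUR (0.015) and SP3 (-0.014) after the GC and length correction; the cause was not tested. The replicate block gave 7039 called genes, with 2 higher and 2 lower among the 7 as without it, and ended the calls of EXT1 and PLAUR (adjusted p = 0.0620 and 0.0575, limma). Same-numbered libraries correlated in their deviations at 0.053, 0.067 and -0.0038, so the numbers are not treated as pairs. With 1 library left out, EXT1, PLAUR and GRK6 lost their calls in several cases, and genes called ran from 5967 to 6432. The ratio of TFPI2 to F3 was not computed, since TFPI2 is at 0 in 4 libraries. Depth limits TFPI (70 to 173 reads) and TFPI2.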
